A study of Homo sapiens with 31 samples.

Results

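Desmosomes are adhesion plaques that tie the keratin filaments of neighboring epithelial cells together. The transcripts of 10 desmosome components were examined: the cadherins DSG2, DSG3, DSC2 and DSC3, the armadillo proteins JUP, PKP1, PKP2 and PKP3, the plakin DSP and the membrane protein PERP. They were taken by gene symbol from an FPKM table of 19221 genes (fragments scaled by gene length and by library), and all 10 were found and passed the filter on low values in both comparisons. In the libraries labelled A2780 OlaR, all 10 were called higher than in A2780, where 40.1% of all genes were called higher and 89.8% called either way. In those labelled C13* shCEBPB, 7 were called lower than in C13* shCON, where 45.7% of all genes were called lower and 84.7% either way, and DSP, PKP3 and JUP were not called. DSG3, DSC3 and PKP1 were near 0 in both A2780 and shCEBPB. DSC2 was near 0 in A2780, and PKP2 stayed under 1 FPKM in shCEBPB. For these genes a difference was bound to be found in those comparisons.

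mRNA was sequenced from 31 libraries, in 4 groups, of human cell lines that the study uses as models of ovarian cancer. The study itself questions the use of C13* because of its origin. It also cites a report of A2780 as an unlikely line of high-grade serous ovarian cancer. A2780 is the untreated parent line (n = 8), and A2780 OlaR is a strain derived from it by culture in gradually rising olaparib, a PARP inhibitor, until it was resistant (n = 8). C13* is a cisplatin-resistant line that carried either a control shRNA (shCON, n = 7) or a lentiviral shRNA against CEBPB, the gene of the transcription factor C/EBPβ (shCEBPB, n = 8). A2780 OlaR is described as 1 strain, so its libraries do not sample separate derivations. The study calls its replicates biological, but the labels do not say whether they came from separate cultures. In bulk samples, fewer cells with a transcript and less transcript per cell cannot be told apart.

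The library labels were compared with the data first. CEBPB had a lowest, median and highest FPKM of 75.2, 85.4 and 101 in shCON and of 30.2, 49.5 and 58.7 in shCEBPB, and the groups did not overlap (log2 fold change -0.87, SE 0.11, limma adjusted p = 1.42e-06). It had 85.6, 99.7 and 111 in A2780 and 97.1, 113 and 127 in A2780 OlaR, which overlapped (log2 fold change 0.16, SE 0.06, limma adjusted p = 0.0202, and 0.103 in 1 fit of all 4 groups). All 8 libraries labelled A2780 OlaR were nearer to C13* shCON than to A2780. The group means of log2(FPKM + 1) across genes correlated at r = 0.993 between A2780 OlaR and shCON, at 0.709 between A2780 OlaR and A2780, and at 0.791 between shCEBPB and shCON. Of 12967 genes, 69 (0.532%) were called with a fold change of at least 2 between A2780 OlaR and shCON, against 4517 between A2780 OlaR and A2780 and 3585 between shCEBPB and shCON. The reason was not tested, and every difference between A2780 OlaR and A2780 below is therefore one between libraries labelled so. For shCON replicate 1, 1 label field names the line as A2780 although the title gives C13*, and no call on the 10 genes changed without it. CD45 (PTPRC), a leukocyte marker, gave nearly all of the summed leukocyte markers in A2780 (76.2 to 103 FPKM, against at most 0.473 in any library of the other groups), while CD3E was at 0 in all A2780 libraries. Its part in the results was not tested. The labels name the cell type adenocarcinoma. Of 6 ovarian or Mullerian markers, WT1 and MUC16 stayed under a mean of 1 FPKM in all 4 groups. PAX8 and EPCAM had means of 6 and 116 FPKM in A2780 OlaR, 6.1 and 111 in shCON, 0.555 and 1.2 in A2780, and 0.536 and 0.567 in shCEBPB. KRT7 had 9.66, 8.02, 0.0626 and 583 in the same order, and SOX17 was above 1 in shCEBPB alone (1.83). The summed squamous markers (KRT5, KRT14, KRT17, TP63 and SFN) ranged from 2938 to 3821 FPKM in A2780 OlaR and 3069 to 3646 in shCON, against 0.523 to 2.13 in A2780 and 220 to 525 in shCEBPB.

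In a desmosome, the outer parts of desmogleins and desmocollins join neighboring cells, and their tails bind plakoglobin (JUP) and the plakophilins inside the cell. These bind desmoplakin (DSP), which holds the keratin filaments. DSG2 and DSC2 are the widespread cadherins of simple epithelia, whereas DSG3, DSC3 and PKP1 are typical of stratified epithelia such as the epidermis. PERP, a tetraspan protein, is a target of p53 and p63 found in desmosomes of stratified epithelia.

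The bases before the start sites are given for 5 members, since DSG3, DSC3 and PKP1 were near 0 in A2780 and shCEBPB while DSG2 and PERP were present in all 4 groups. They are from RefSeq (GRCh38.p14), which was matched for 8 of the 10 members (all but PKP2 and PKP3). Of the 250 bases before each start, the part ahead of the first annotated exon (GENCODE 44) is shown. Capitals mark matches, on either strand, to the E-box CACCTG bound by ZEB and SNAI factors, the GC box GGGCGG, the AP-1 site TGANTCA, the C/EBP site TTGCNNAA or the Grainyhead site AACCNGTT. The windows lie at chr18:31447491-31447740 (+) for DSG3, chr18:31042816-31042992 (-) for DSC3, chr1:201283256-201283451 (+) for PKP1, chr18:31497927-31498176 (+) for DSG2 and chr6:138107420-138107669 (-) for PERP.
DSG3: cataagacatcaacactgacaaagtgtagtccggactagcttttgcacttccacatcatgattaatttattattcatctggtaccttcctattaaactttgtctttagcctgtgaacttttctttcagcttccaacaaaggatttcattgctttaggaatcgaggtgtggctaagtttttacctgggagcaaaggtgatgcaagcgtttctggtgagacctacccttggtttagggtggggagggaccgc
DSC3: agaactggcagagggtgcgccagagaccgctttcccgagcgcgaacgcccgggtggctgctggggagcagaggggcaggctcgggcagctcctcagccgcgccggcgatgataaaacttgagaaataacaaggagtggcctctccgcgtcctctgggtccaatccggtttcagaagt
PKP1: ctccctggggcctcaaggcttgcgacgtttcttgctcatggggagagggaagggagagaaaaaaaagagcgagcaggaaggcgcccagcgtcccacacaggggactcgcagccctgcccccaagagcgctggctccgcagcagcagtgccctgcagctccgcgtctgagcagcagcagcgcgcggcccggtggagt
DSG2: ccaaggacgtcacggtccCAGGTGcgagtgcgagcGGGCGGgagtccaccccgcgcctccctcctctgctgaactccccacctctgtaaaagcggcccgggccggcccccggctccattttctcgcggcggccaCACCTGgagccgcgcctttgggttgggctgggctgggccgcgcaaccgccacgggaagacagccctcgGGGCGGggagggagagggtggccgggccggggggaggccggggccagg
PERP: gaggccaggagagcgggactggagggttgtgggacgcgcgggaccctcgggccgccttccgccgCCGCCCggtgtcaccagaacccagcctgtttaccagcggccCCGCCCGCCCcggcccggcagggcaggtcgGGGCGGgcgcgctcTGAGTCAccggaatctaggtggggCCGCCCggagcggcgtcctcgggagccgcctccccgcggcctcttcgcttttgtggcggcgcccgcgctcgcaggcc

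Over the whole 250 bases, the G and C content was 42.8% for DSG3, with 4 CpG dinucleotides, and 75.2% for DSG2, with 26. These neighboring cadherin genes thus stood apart in base composition, as the median over 35116 promoters was 58% and 11 CpG. DSC3 had 60.4%, PKP1 67.6%, PERP 77.2% and DSP 78%. The E-box was found in 4 of the 8 members (DSG2, DSC2, DSP and JUP) and in 17.5% of all promoters, and the GC box in 6 (DSG2, DSC2, DSP, PKP1, JUP and PERP) and in 42.6%. The C/EBP site was in JUP only (9.05% of all promoters), the AP-1 site in PERP only (6.57%), where its palindrome is read on both strands at 1 place, and the Grainyhead site in none (1.49%). DSG3 and DSC3 had no match to any of the 5. The GC box of PKP1 lies in the annotated exon and is not shown. The DSP window has 0 bases ahead of its first annotated exon, and the 2 JUP windows have only 30 and 17. Every match counted for DSP and JUP, the C/EBP site among them, thus lies past the start of an annotated exon. DSC2 and JUP each have 2 windows, and a match in either was counted. A match is only a run of letters in a window and says nothing of binding.

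Whether the members differed between A2780 OlaR and its parent was tested with limma (two-sided) on the log2(FPKM + 1) scale, and p values were adjusted by Benjamini-Hochberg over every gene tested. All 10 members rose, and none fell. DSG3, DSC2, DSC3 and PKP1 reached 1 FPKM in no A2780 library and passed the filter through A2780 OlaR alone, so that a difference was bound to be found for these 4. Of all 12458 genes, 40.1% were called higher, 49.7% lower and 89.8% either way, and a call alone is the usual outcome here. The 2 groups did not overlap for any of the 10 members, nor for 74.1% of all genes. Fold changes of at least 2 were seen for 8 members and 35.7% of all genes. The median log2 fold change of the members was 2.77, against -0.12 for all genes. Between shCEBPB and shCON, which compare cells with less and more CEBPB, 7 members fell and none rose, whether by limma or by an exact permutation p under 0.05. Of the 7, DSG3, DSC3, PKP1 and PKP2 passed the filter through shCON alone, so that a difference was bound to be found for these 4 as well. Of 12006 genes, 45.7% were called lower, 38.9% higher and 84.7% either way. The groups did not overlap for 7 members and for 66.0% of genes, and 5 members and 29.5% of genes were called with a fold change of at least 2. The median was -0.92 for the members and -0.07 for all genes. The plot of differences shows both comparisons for each gene.

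**Figure D1:**
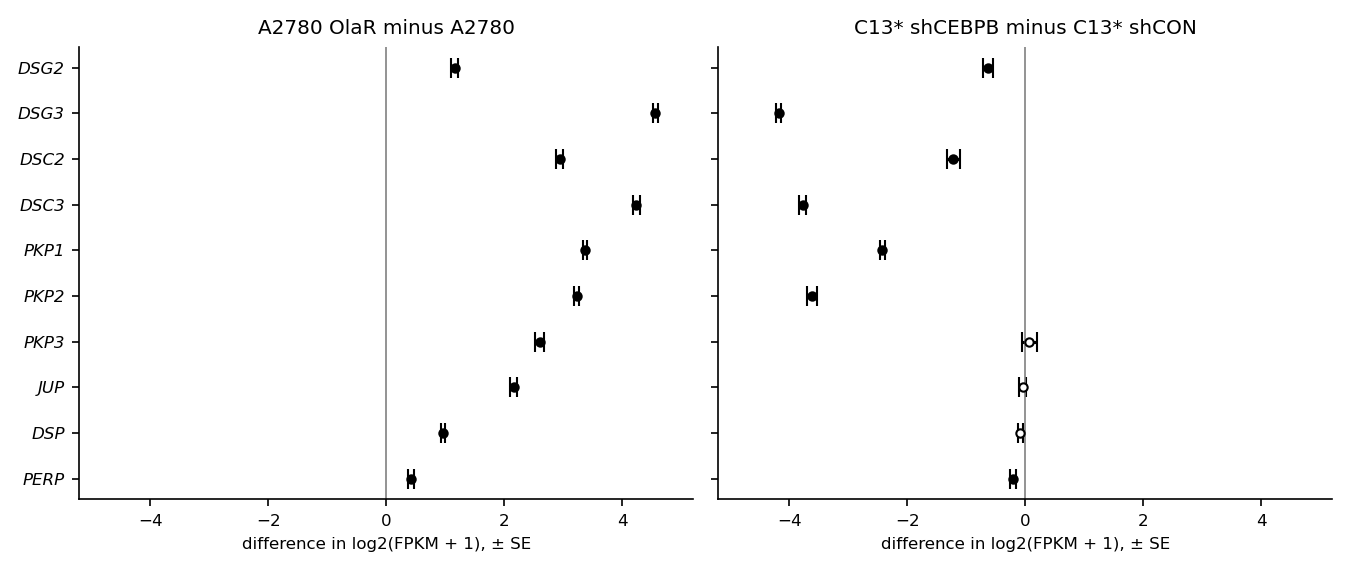
Difference in log2(FPKM + 1) for each of the 10 genes between A2780 OlaR and A2780 (left) and between shCEBPB and shCON (right); points are limma estimates, bars standard errors, and open points have an adjusted p above 0.05. All 10 points lie right of 0 on the left panel, from 0.42 for PERP to 4.56 for DSG3, and on the right panel PKP3, JUP and DSP lie at 0.07, -0.04 and -0.08.

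Desmoglein 3 (DSG3) is the desmoglein of stratified epithelia and the target of autoantibodies in pemphigus vulgaris. Its lowest, median and highest FPKM were 0, 0.0114 and 0.0534 in A2780 and 21.3, 22.5 and 25.6 in A2780 OlaR. They were 15.7, 16.9 and 18.4 in shCON, while in shCEBPB DSG3 was listed at 0 in 7 of 8 libraries and at 0.0131 in the other. The libraries thus fell into a high and a near-absent class with nothing between. The log2 fold change was 4.56 (SE 0.04) for A2780 OlaR against A2780 and -4.18 (SE 0.04) for shCEBPB against shCON. Since libraries are at 0, no ratio is given, and these values depend on the pseudocount of 1 (with 0.01 they were 9.92 and -10.59). In both comparisons DSG3 passed the filter only through the group where it was high, so no test is given.

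Desmoglein 2 (DSG2), the desmoglein of simple epithelia and heart, was present in every library. The FPKM were 29.8, 32 and 34.2 (lowest, median, highest) in A2780, 63.9, 71.1 and 83.2 in A2780 OlaR, 61.6, 64.3 and 77.7 in shCON, and 35.7, 39.7 and 57.3 in shCEBPB. Neither comparison had overlapping libraries. The mean rose 2.28-fold from 32 ± 1.58 (SD, n = 8) in A2780 to 73 ± 8.83 (n = 8) in A2780 OlaR (log2 fold change 1.16, SE 0.06, limma adjusted p = 5.75e-13). The shCON mean was 1.54 times that of shCEBPB (67.1 ± 5.59, n = 7, against 43.5 ± 7.81, n = 8; log2 fold change -0.63, SE 0.09, limma adjusted p = 5.31e-06). A change as large was found for 46.4% of all genes in that comparison.

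Desmocollin 3 (DSC3), the partner cadherin of stratified epithelia, repeated the levels of DSG3. Its FPKM were 0.0372, 0.0702 and 0.124 in A2780, 16.7, 18.5 and 23 in A2780 OlaR, 13.3, 14.7 and 16 in shCON, and 0.0345, 0.13 and 0.282 in shCEBPB (lowest, median, highest). Every library of A2780 and shCEBPB was below every library of the other groups. The mean was 256-fold higher in A2780 OlaR than in A2780 (log2 fold change 4.24, SE 0.06) and 101-fold lower in shCEBPB than in shCON (log2 fold change -3.77, SE 0.06). As for DSG3, no test is given for DSC3. Desmocollin 2 (DSC2), the widespread desmocollin, was near 0 in A2780 only. Its FPKM were 0, 0.0131 and 0.079 in A2780, 5.68, 7.18 and 7.93 in A2780 OlaR, 6.58, 7.37 and 8.16 in shCON, and 1.59, 2.88 and 3.38 in shCEBPB. The shCEBPB libraries lay between A2780 and the other groups, with no overlap on either side. DSC2 rose by 2.94 (SE 0.06) on the log2(FPKM + 1) scale in A2780 OlaR, or by 8.10 with a pseudocount of 0.01. No test is given for that rise, since DSC2 passed the filter there through A2780 OlaR alone. DSC2 fell 2.78-fold in shCEBPB (log2 fold change -1.22, SE 0.11, limma adjusted p = 5.57e-09).

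**Figure D2:**
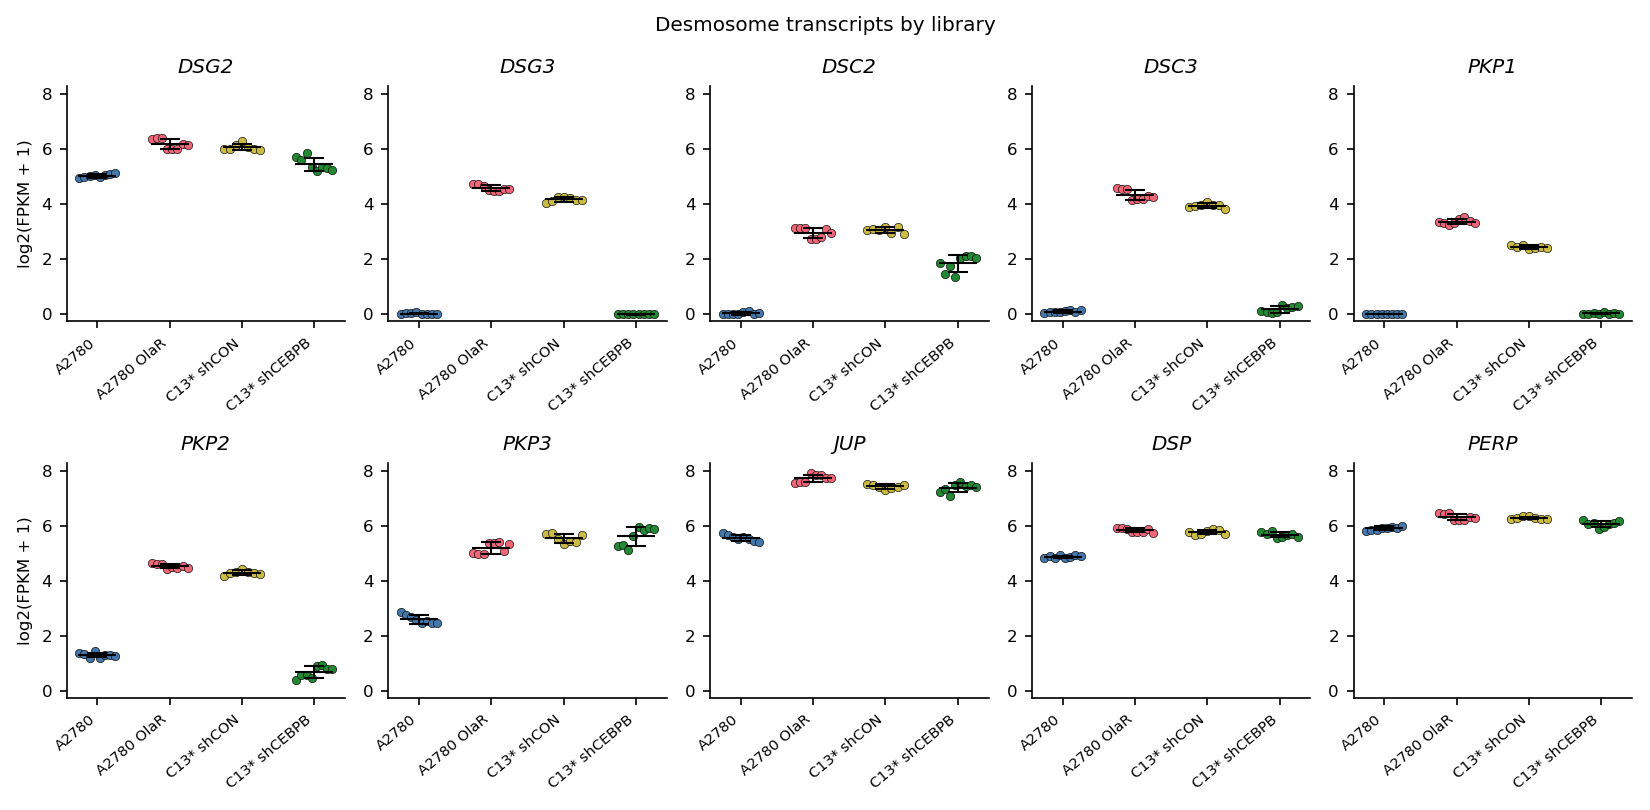
log2(FPKM + 1) of the 10 genes in each library; points are libraries, drawn in replicate order, horizontal lines group means and bars SD (n = 8 for A2780, A2780 OlaR and shCEBPB, 7 for shCON). DSG3, DSC3 and PKP1 lie near 0 in A2780 and shCEBPB, while PKP3, JUP and DSP are low in A2780 alone.

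The plakophilins, armadillo proteins that bind the cadherin tails and desmoplakin, split into different patterns. PKP1, the plakophilin of stratified epithelia, was at 0 in each of the 8 libraries of A2780. Its FPKM were 8.57, 9.21 and 10.6 in A2780 OlaR, 4.17, 4.43 and 4.82 in shCON, and 0, 0.0199 and 0.0571 in shCEBPB. The groups did not overlap in either comparison. The log2 fold changes were 3.37 (SE 0.04) for A2780 OlaR against A2780 and -2.42 (SE 0.04) for shCEBPB against shCON. Their size is set by the pseudocount, and with 0.01 they were 9.87 and -7.29. In both comparisons PKP1 passed the filter only through the group where it was high, so no test is given. PKP2, which also serves the desmosomes of heart and simple epithelia, had 1.3, 1.46 and 1.72 FPKM in A2780, 20.6, 22.1 and 24.1 in A2780 OlaR, 17, 18.6 and 20.6 in shCON, and 0.332, 0.618 and 0.925 in shCEBPB. It was thus lower in shCEBPB than in A2780, again with no overlap. Its mean was 15.1-fold higher in A2780 OlaR (log2 fold change 3.23, SE 0.04, limma adjusted p = 1.62e-22) and 30-fold lower in shCEBPB (log2 fold change -3.61, SE 0.08). No test is given for the fall, since PKP2 passed the filter there through shCON alone. PKP2 shares 424 exonic bases with a lncRNA on the same strand in GENCODE 44, so reads there could be counted for either gene.

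PKP3, a plakophilin of most epithelia, had 4.49, 4.9 and 6.28 FPKM in A2780 and 30.2, 36.5 and 41.6 in A2780 OlaR, a 7.06-fold higher mean (log2 fold change 2.60, SE 0.08, limma adjusted p = 1.20e-16). It had 39.8, 45.3 and 51.8 in shCON and 33.6, 52.3 and 61.7 in shCEBPB. The shCEBPB libraries spread below and above those of shCON, and the difference was not called (log2 fold change 0.07, SE 0.13, limma adjusted p = 0.623). The direction turned with the library number: it was -0.42 (limma adjusted p = 6.02e-04) in libraries 1 to 3 and 0.38 (4.89e-04) in libraries 4 to 8. JUP, the catenin shared by desmosomes and adherens junctions, had the highest FPKM of the 10 genes in A2780 OlaR, shCON and shCEBPB. Its FPKM were 41.9, 46.2 and 52.7 in A2780, 185, 212 and 241 in A2780 OlaR, 155, 171 and 182 in shCON, and 136, 172 and 194 in shCEBPB. It rose 4.54-fold in A2780 OlaR (log2 fold change 2.16, SE 0.06, limma adjusted p = 1.10e-17), without overlap, whereas shCON and shCEBPB overlapped (log2 fold change -0.04, SE 0.06, limma adjusted p = 0.564).

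Desmoplakin (DSP) showed a like contrast. Its FPKM were 27.7, 28.5 and 29.4 in A2780, 53, 56.1 and 59.6 in A2780 OlaR, 49.8, 53.2 and 57.4 in shCON, and 46.6, 50.5 and 55.5 in shCEBPB. The mean rose 1.97-fold in A2780 OlaR (log2 fold change 0.96, SE 0.03, limma adjusted p = 7.83e-16). In shCEBPB it overlapped shCON and was not called (log2 fold change -0.08, SE 0.05, limma adjusted p = 0.105), although 1 fit of all 4 groups put it just past the threshold (adjusted p = 0.0499). PERP changed least of the 10 in A2780 OlaR, with 54.7, 59.8 and 63.3 FPKM in A2780, 72.8, 78 and 88 in A2780 OlaR, 74.2, 76 and 80.7 in shCON, and 58.4, 67.1 and 73.5 in shCEBPB. It rose 1.35-fold in A2780 OlaR (log2 fold change 0.42, SE 0.05, limma adjusted p = 7.18e-08) and fell by 0.21 on the log2 scale in shCEBPB (SE 0.05, limma adjusted p = 4.84e-04), and neither comparison overlapped. A change as large as that of PERP was found for 79.3% of all genes in the shCEBPB comparison and for 67.6% in the other. DSG2 and DSP share 186 and 81 exonic bases with antisense genes, and whether the counting used strand is not stated.

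The 4 groups were then ordered for each gene in 1 fit over 12967 genes with every pair of groups compared. All 10 members were called between A2780 and A2780 OlaR (88.0% of genes) and between A2780 and shCON (87.6%), and all 10 between A2780 OlaR and shCEBPB (84.8%). In this fit 8 were called between shCON and shCEBPB (84.3%), 7 between shCEBPB and A2780 (88.0%), and 6 between A2780 OlaR and shCON (37.7%), the last with 0 past a fold change of 2 on the log2(FPKM + 1) scale. These contrasts share libraries, so they are not independent. DSG3, DSC3 and PKP1 were not called between shCEBPB and A2780 (shCEBPB minus A2780, log2 differences of -0.02, 0.08 and 0.04, limma adjusted p = 0.537, 0.183 and 0.313). No library of these 2 groups passed 0.282 FPKM for them. With a pseudocount of 1 a difference so low could hardly be called, so the lack of a call does not show equal levels. PKP2 was called there, 0.62 higher in A2780 on the log2 scale (SE 0.06, limma adjusted p = 7.76e-11). DSG2, DSC2, DSP and PERP were not called between A2780 OlaR and shCON (limma adjusted p = 0.285, 0.433, 0.148 and 0.502). The widest difference between those groups was that of PKP1, whose mean was 9.39 ± 0.653 FPKM (SD, n = 8) in A2780 OlaR and 4.47 ± 0.235 (n = 7) in shCON, with no overlap (log2 difference 0.92, SE 0.03, limma adjusted p = 2.28e-20). PKP3 went the other way, at 36 ± 5.13 in A2780 OlaR and 46 ± 5.02 in shCON (log2 difference 0.35, SE 0.11, limma adjusted p = 0.012).

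FPKM are scaled by gene length, so the members of a family were also compared within a library. The share of DSG3 in the summed desmoglein FPKM was 0.0608% ± 0.0611 (SD, n = 8) in A2780, 24.1% ± 0.906 in A2780 OlaR, 20.4% ± 0.774 (n = 7) in shCON and 0.00316% ± 0.00895 in shCEBPB. DSG2 made up nearly all the rest. Desmocollins turned over more widely: DSC2 was 33.7% ± 1.2 of their sum in shCON and 95.2% ± 2.2 in shCEBPB, while DSC3 went from 66.1% ± 1.32 to 4.71% ± 2.32. The desmocollin sum itself was 22 FPKM in shCON, 2.82 in shCEBPB and 26.4 in A2780 OlaR. In A2780 it was 0.19, so the shares there rest on very low values. PKP3 rose from 66.3% ± 3.22 of the plakophilins in shCON to 98.7% ± 0.307 in shCEBPB, and was 77.5% ± 2.21 in A2780 and 53% ± 4.3 in A2780 OlaR. The PKP2 share was 22.5% in A2780 and 33.1% in A2780 OlaR. An exact permutation test of it (two-sided, adjusted over 20 tests) gave an adjusted p = 4.44e-04. It came from the smallest p the test can give. Shares of a family sum to 100%, so the 20 tests are not independent. PKP1 was at 0 in A2780 and 13.9% in A2780 OlaR, which lowers the other shares there in advance. No p is therefore given for the fall of the PKP3 share. No p is given for the desmogleins or for any family in shCEBPB, since members near 0 in 1 group fixed the outcome. Nor is one given for the desmocollins of A2780, whose shares rest on very low values. The stacked bars show these shares with the family sums.

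**Figure D3:**
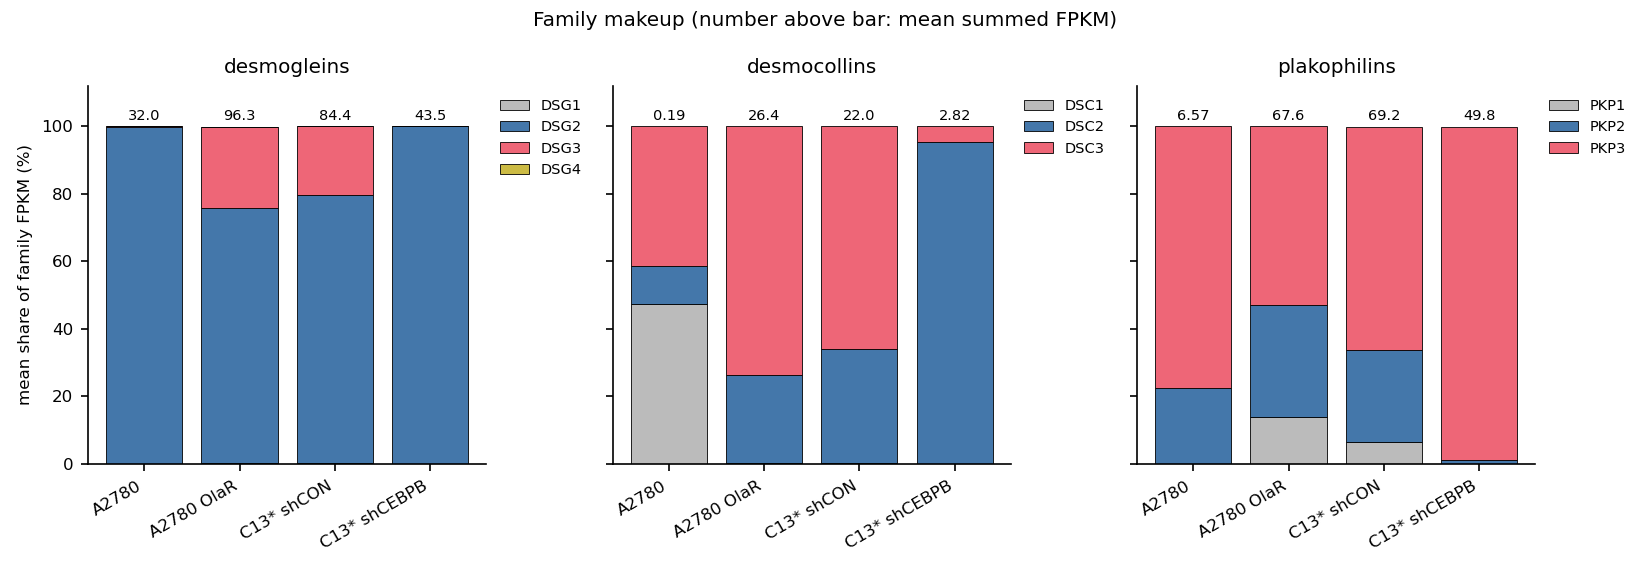
Mean share (%) of each gene in the summed FPKM of the desmogleins, desmocollins and plakophilins in the 4 groups, with the mean sum in FPKM above each bar. In shCEBPB, DSG2, DSC2 and PKP3 take 100%, 95.2% and 98.7% of their families, and the A2780 desmocollin bar stands for only 0.19 FPKM.

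The desmosomal cadherin genes form a cluster of 7 genes on chromosome 18 (hg38, GENCODE 44) that spans 559.6 kb. In map order they are DSC3 (30989365 to 31042815, 17 exon blocks), DSC2 (31058840 to 31102522, 19), DSC1, DSG1, DSG4, DSG3 (31447741 to 31478702, 16) and DSG2 (31498177 to 31549008, 14), the desmocollins on the minus strand and the desmogleins on the plus strand. DSC1, DSG1 and DSG4, of the upper epidermis and the hair, had means of at most 0.163 FPKM in every group. The 4 expressed genes thus lie at the ends of the cluster, and the inner 3 were near 0 throughout. DSG1 followed DSG3 at a trace level, with means of 0.163 in A2780 OlaR and 0.125 in shCON against 0.0152 in A2780 and 0.000824 in shCEBPB. Next to DSG2, TTR was listed at 0 in all libraries. B4GALT6, a lactosylceramide synthase beyond TTR, had a mean of 2.71 ± 0.31 FPKM in shCON and 0.112 ± 0.0543 in shCEBPB (log2 fold change -1.74, SE 0.05). It passed the filter there through shCON alone, so no test is given for that difference. It differed little between A2780 (2.48 ± 0.376) and A2780 OlaR (3.1 ± 0.585, log2 fold change 0.23, SE 0.08, limma adjusted p = 0.016). The other members lie apart: DSP at chr6:7541338-7586714, PERP at chr6:138088505-138107419, PKP1 at chr1:201283452-201332993, PKP2 at chr12:32790745-32896798, PKP3 at chr11:392614-404908 and JUP at chr17:41754604-41786931.

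**Figure D4:**
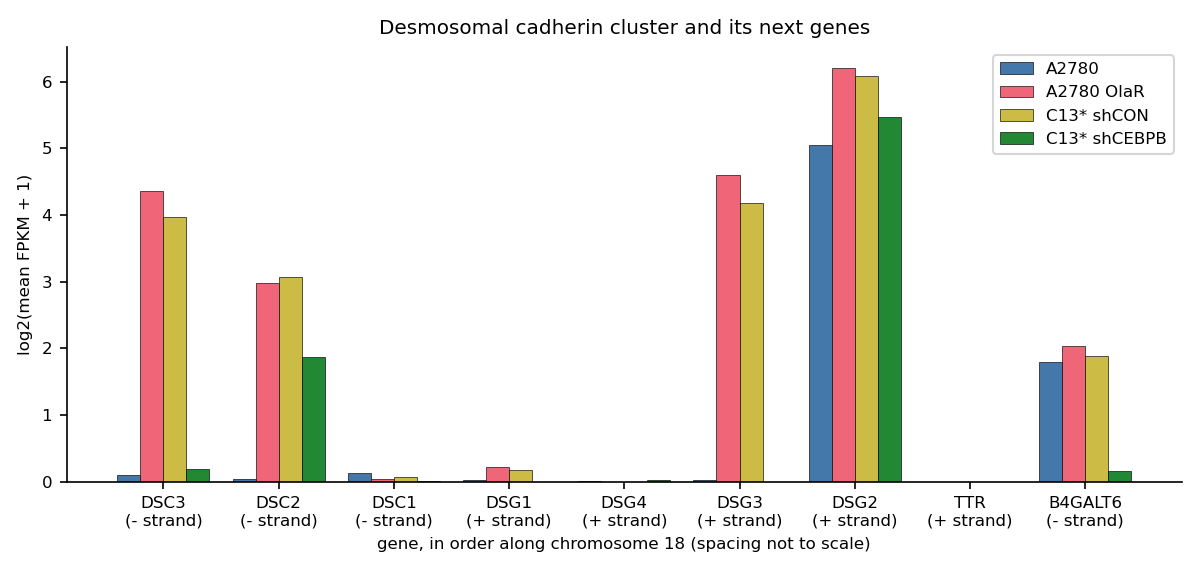
log2(mean FPKM + 1) in the 4 groups for the 7 cadherin genes of the chromosome 18 cluster and the next 2 genes, in map order and not to scale. DSC3 and DSG3 are high in A2780 OlaR and shCON alone, DSG2 is present in all groups, and DSC1, DSG1 and DSG4 stay at or under a mean of 0.163 FPKM.

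In all 4 groups, libraries numbered 1 to 3 and 4 to 8 in their library codes were examined apart, since they stood apart in earlier results. The labels do not say what the numbers mean. For 9 of 10 members in A2780 OlaR (57.2% of genes), 4 of the 6 with a mean of at least 1 FPKM in shCEBPB (53.5%), 2 of 6 in A2780 (20.8%) and 0 of 10 in shCON (4.76%), the ranges did not overlap. PKP3 was affected most. In shCEBPB its mean was 36.7 FPKM in libraries 1 to 3 and 56.6 in 4 to 8, whereas it was 49.4 and 43.5 in shCON. Its fall in libraries 1 to 3 and its rise in libraries 4 to 8 against shCON, given above, differed by 0.80 on the log2 scale (SE 0.12, interaction of range and group). The split was chosen with earlier results of these data known, so a test across it is not independent, and no p is given for this interaction. JUP also differed, at -0.24 (adjusted p = 0.00937) and 0.09 (0.148), as did DSP, at 0.05 (0.388) and -0.17 (0.00512). By limma, the interaction was called for 4 members and for 47.5% of all genes. In the comparison of A2780 OlaR with A2780 it was called for 8 members and 60.7% of genes. The same limit holds for these calls. DSG3, DSC2, DSC3, PKP1, PKP2, DSG2 and PERP fell in shCEBPB within either range, and all 10 members rose in A2780 OlaR within either range. For genes that passed the filter through 1 group alone, that was bound to be so.

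**Figure D5:**
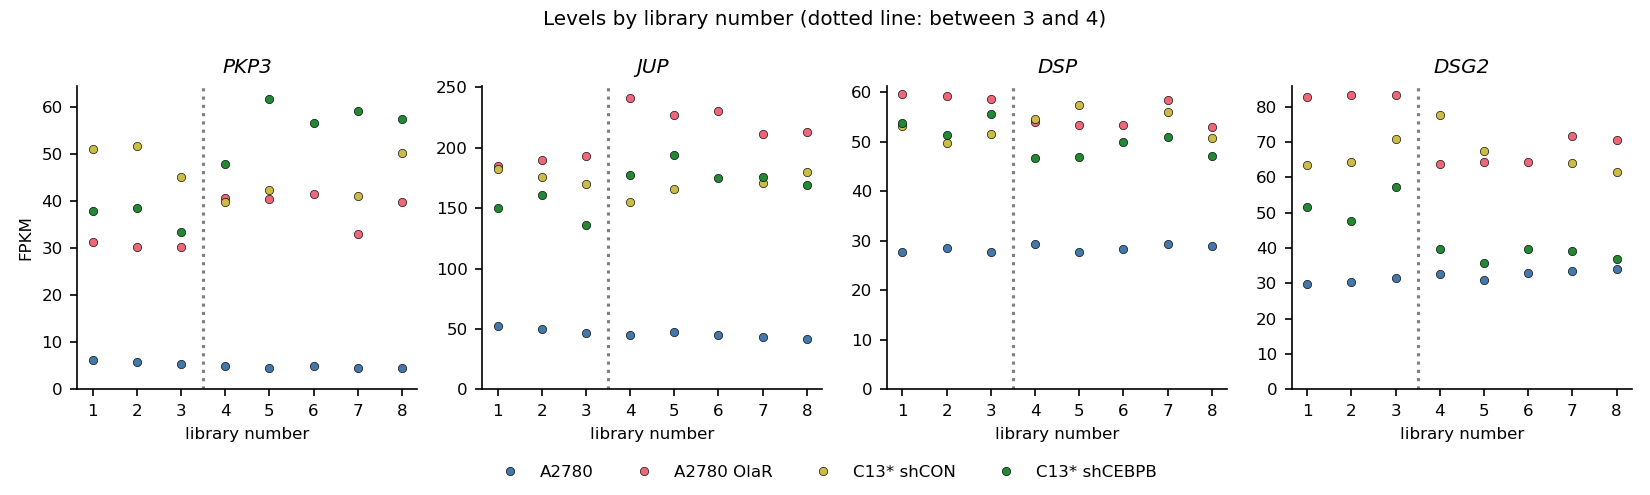
FPKM of PKP3, JUP, DSP and DSG2 in each library against the library number, colored by group, with a dotted line between numbers 3 and 4. The shCEBPB libraries of PKP3 average 36.7 left of the line and 56.6 right of it, below and above shCON.

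Other genes of cell adhesion were counted by lists. For comparison with the counts here and below, 45.7% of all genes were called lower and 38.9% higher in shCEBPB. In A2780 OlaR 49.7% were called lower and 40.1% higher. Of 8 other desmosome and cornified envelope genes, 4 could be tested. The plakins PPL and EVPL and the plakin-binding KAZN rose in A2780 OlaR (log2 fold changes 5.52, 3.71 and 1.37) while PKP4 fell slightly (-0.15), and in shCEBPB KAZN, PPL and PKP4 fell (-1.29, -1.01 and -0.61) with EVPL at -0.16 (limma adjusted p = 0.134). Of 11 intermediate filament genes tested, the keratins being what desmoplakin binds, 10 rose in A2780 OlaR and vimentin (VIM) fell. In shCEBPB 7 fell and 4 rose: KRT5, the basal keratin, had a mean of 1530.4 FPKM in shCON and 0.0134 in shCEBPB, KRT19 1470.2 and 0.0306, and KRT14 78.7 and 0.0512, while KRT7 went from 8.02 to 583, VIM from 9.82 to 342 and KRT8 from 459 to 882. In the same libraries DSP had means of 53.3 FPKM in shCON and 50.3 in shCEBPB. Of 11 adherens junction genes, 5 rose and 6 fell in A2780 OlaR, and 3 rose and 7 fell in shCEBPB. The classical cadherins CDH1 and CDH3 were among the widest changes (in shCEBPB -5.67 and -6.65, in A2780 OlaR 6.61 and 7.11). Of 9 hemidesmosome genes, which anchor cells to the basement membrane, 8 fell in shCEBPB, among them COL17A1 (-6.57) and LAMA3 (-4.61), and CD151 rose (0.99). In A2780 OlaR 8 rose and CD151 fell. CDH1 and CDH3 in both comparisons, and COL17A1 and LAMA3 in shCEBPB, passed the filter only through the group where they were high.

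Among genes of transcription regulators of epithelia, 11 of 15 fell in shCEBPB and 4 rose. TP63 and GRHL2, which control epidermal and junction genes, fell (log2 fold changes -5.65 and -4.04), whereas KLF4, SNAI1 and ZEB1, the last 2 of them known repressors of E-cadherin, rose by 2.77, 2.45 and 2.31. SNAI2 and TWIST1, also repressors of E-cadherin, fell (-1.38 and -0.89). In A2780 OlaR 11 of 14 rose, with TP63 at 5.65 and GRHL2 at 4.54, and ZEB1 and TWIST1 fell (-3.33 and -2.50) while SNAI2 rose (3.20). Genes of desmosome turnover and transport were split, at 5 up and 5 down in both comparisons. For markers of cell types, all 5 squamous markers fell in shCEBPB and rose in A2780 OlaR. Of all genes, 45.7% were called lower in shCEBPB and 40.1% higher in A2780 OlaR. Of the 5 markers, 3 in the shCEBPB comparison and 4 in the other passed the filter only through the group where they were high. Mesenchymal markers had 3 up and 2 down in shCEBPB and 1 up and 4 down in A2780 OlaR. Of the ovarian or Mullerian markers, KRT7 rose and EPCAM and PAX8 fell in shCEBPB, and these 3 rose in A2780 OlaR. Of the 3 endothelial markers, CDH5 had the highest mean, 1.43 FPKM in A2780 OlaR against 0.00164 in A2780, and no test is given for it or for SOX17, since each passed the filter only through the group where it was high. Other genes in these lists, EPCAM and PAX8 in the shCEBPB comparison among them, passed that way too, so that a difference was bound to be found for them. In the shCEBPB comparison they were 4 of 11 intermediate filament genes, 8 of 15 regulators, 2 of 11 adherens junction genes and 3 of 9 hemidesmosome genes. In the other they were 9 of 11, 7 of 14, 3 of 11 and 0 of 9, and 2 of 4 other desmosome and cornified envelope genes. Of the mesenchymal markers they were 1 of 5 in the shCEBPB comparison and 3 of 5 in the other. Of the ovarian or Mullerian markers they were 3 of 4 and 2 of 3, and of the turnover and transport genes 2 of 11 and 1 of 10. The part of these shifts in the desmosome values was not tested.

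By the distance between centered group means of log2(FPKM + 1), 12888 genes were ranked for likeness to each member, over 4 groups only. Nearest to DSG3 were BTBD11 (root mean square difference 0.061), HCAR2 (0.102) and FAT2 (0.11), a protocadherin. Nearest to DSC3 were ARSI (0.0377), ADGRF1 (0.0674) and EFS (0.105), and to PKP2 CD40 (0.0744), CRABP2 (0.109) and ETV7 (0.141). DSP lay nearest to ACIN1 (0.0247), APLP2 (0.0253) and ACOT11 (0.0257).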

How the data were processed

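mRNA libraries were made with a VAHTS kit and sequenced as paired ends on a NovaSeq. The authors mapped reads to hg38 with TopHat and counted them with HTSeq. The submitters' processing notes also name FastQC and edgeR. The deposited values are FPKM of 19225 entries, of which 4 with a repeated symbol were left out. The tool, annotation and strand setting behind the FPKM are not given in the sources used here. Groups and replicate numbers came from the labels. No 2 libraries held identical values.

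FPKM give no read totals, so absolute depth is unknown and no counting interval is given. Steps of low values (93.5% within 0.05 of a whole step over 383 genes) gave relative depths that differed at most 1.42-fold, and FPKM summed to between 417556 and 454578.

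Genes that reached 1 FPKM in 7 or more (shCEBPB) or 8 or more (A2780 OlaR) libraries were tested with limma 3.58.1 in R 4.3.3 (trend, two-sided) on log2(FPKM + 1), which understates changes of low genes, and called at an adjusted p under 0.05. The study used edgeR on counts, which were not used here. The step was tested on simulated data. Single genes and family shares had exact permutation tests. Python 3.11.15 was used otherwise. Alternatives were other pseudocounts, filters and scalings, a 4-group fit, the replicate block, the library ranges and each library left out. After seeing the data, the range as a term and its interaction were added. Members, lists and ranges were chosen with earlier results of these data known. Text names the members, CEBPB, the cadherin cluster, the widest called changes of each list, and the 3 genes most like a member. A few genes that this rule picks are not reported here. EVPL in shCEBPB, and SNAI2 and TWIST1, were named after their values were seen.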

Additional observations from a re-analysis of the deposited data

Results flagged for a closer look

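DSG3 in shCEBPB was set apart by replicate 1, with 0.0131 FPKM where the other 7 libraries were listed at 0. Of 39 gene and group combinations checked for such a gap, 1 was met, and chance gives about 1 in 20. With 7 libraries at 0 any value above 0 meets the criterion, so the gap says nothing of that library.

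For several members the change differed between libraries 4 to 8 and libraries 1 to 3 by the limma test of the interaction. The log2 fold change of shCEBPB against shCON in libraries 4 to 8, minus that in libraries 1 to 3, was -0.47 for DSG2, -0.23 for DSP, 0.80 for PKP3 and 0.33 for JUP. For A2780 OlaR against A2780 it was -0.41 for DSG2, -0.18 for DSG3, -0.31 for DSC2, -0.39 for DSC3, -0.15 for DSP, 0.60 for PKP3, 0.40 for JUP and -0.33 for PERP. PKP3 and JUP had larger values in libraries 4 to 8 in both comparisons, and DSG2 and DSP smaller ones. Since 47.5% and 60.7% of all genes passed the same test, this was not particular to the members. The split was chosen with earlier results of these data known, so these calls are not an independent test.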

How the results depend on the processing

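The log2 fold changes of the 10 members for A2780 OlaR against A2780 kept their direction and call in 270 of 270 combinations of gene and alternative. For shCEBPB against shCON, 247 kept both and 5 changed sign, and 8 gained a call (DSP 4, PKP3 2 and JUP 2). These tallies include genes that passed the filter through 1 group alone. They were DSG3, DSC2, DSC3 and PKP1 in the first comparison and DSG3, DSC3, PKP1 and PKP2 in the second. For them a kept direction and call was bound to be found. The value of DSP was 0.05 in libraries 1 to 3. PKP3 was -0.04 after quantile normalization, and was called in libraries 1 to 3 (-0.42) and in libraries 4 to 8 (0.38). JUP was 0.09 in libraries 4 to 8, and ranged from -0.07 to 0.00 with 1 library left out, the latter without shCEBPB replicate 3. DSP was called without that same library (-0.10, adjusted p = 0.0384), in 1 fit of 4 groups, in libraries 4 to 8 and after quantile normalization (-0.19), and JUP after quantile normalization (-0.13) and in libraries 1 to 3. PKP1 did not pass the filter at 5 FPKM in this comparison. Smaller pseudocounts changed no call but moved low genes, as given for DSG3, DSC2 and PKP1, and likewise DSC3 (7.89 and -6.86 with 0.01). Without a filter 7 members were called in the shCEBPB comparison and 10 in that of A2780 OlaR, the order kept below. Requiring a fold change of at least 2 left 3539 and 4446 genes in place of 10166 and 11190. On average, same-numbered libraries were not alike. The mean correlation of their deviations was -0.148 over 7 pairs (single pairs -0.512 to 0.462) and -0.233 over 8 (-0.589 to 0.125). The block went by replicate number, and shCON replicates 6 and 7 carry library numbers 7 and 8. Whether libraries share an effect of their number is thus not settled. With the replicate block 7 and 10 members were called, as without it, and 9885 and 10960 genes. The range as a term, added after seeing the data, left 7 and 10. Depth limits the low values: genes near 0 in A2780 or shCEBPB are not shown to be absent.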
